A study of Mus musculus with 12 samples.

Results

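Mcpt4 and Cpa3, protease genes of mast cells, and Ccr3 and Il5ra, receptor genes of eosinophils, were followed through colon RNA of mice with and without chronic colitis. The 4 genes were chosen by name from the 912 features that the Control and DSS files list, with earlier results of these data known. Values are FPKM, the fragments of a gene per kilobase of its length and per 1000000 fragments of the library. The 3 Control libraries came from animals given ddH2O, which the treatment label of the DSS group names too. The 3 DSS libraries came from animals given 2.5% dextran sulfate sodium (DSS), a polymer that damages the epithelium, for 5 days and then normal water for 5 days, in 3 rounds. Files of the decoction groups (DSS plus the herbal Banxia Xiexin Decoction) list none of the 4 genes, so those groups were not analysed here for them. Strain, sex and age were not given in the sources used here, and no label says that the libraries come from different mice; p-values then measure only library-to-library spread, which may be technical.

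Mast cells are resident granulocytes of the gut wall that store proteases bound to heparin and release them on activation. Mouse mast cells of connective tissue type are known for the chymase Mcpt4 together with Cpa3, and mucosal mast cells for Mcpt1 and Mcpt2. Eosinophils live in the healthy lamina propria, enter tissue along eotaxin chemokines sensed by Ccr3, and depend on interleukin 5, which they bind through Il5ra paired with the beta chain Csf2rb.

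The promoters are printed because the 4 genes were all higher in DSS and are genes of 2 lineages in which GATA transcription factors are known regulators. Each run is the 250 bases before the RefSeq start of the gene (GRCm38.p6), 5′ to 3′ on the strand of the gene. Capitals mark the letters GATAA or TATAAA and their reverse complements TTATC and TTTATA. The windows are chr14:56062311-56062560 (minus strand) for Mcpt4, chr3:20242182-20242431 (minus) for Cpa3, chr9:124021721-124021970 (plus) for Ccr3 and chr6:106749038-106749287 (minus) for Il5ra.
Mcpt4: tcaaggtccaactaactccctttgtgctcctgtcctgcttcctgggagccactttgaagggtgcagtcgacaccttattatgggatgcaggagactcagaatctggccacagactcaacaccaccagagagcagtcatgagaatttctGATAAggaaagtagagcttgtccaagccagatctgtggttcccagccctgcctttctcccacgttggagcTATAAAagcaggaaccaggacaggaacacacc
Cpa3: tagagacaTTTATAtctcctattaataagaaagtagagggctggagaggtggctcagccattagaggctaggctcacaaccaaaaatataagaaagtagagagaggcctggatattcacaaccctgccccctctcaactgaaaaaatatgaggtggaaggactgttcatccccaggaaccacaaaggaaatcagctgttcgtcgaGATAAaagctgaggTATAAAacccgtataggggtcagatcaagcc
Ccr3: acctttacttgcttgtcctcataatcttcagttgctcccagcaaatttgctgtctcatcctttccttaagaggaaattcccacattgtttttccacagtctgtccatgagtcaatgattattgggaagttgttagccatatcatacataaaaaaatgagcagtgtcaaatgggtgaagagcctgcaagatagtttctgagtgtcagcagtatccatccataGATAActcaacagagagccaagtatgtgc
Il5ra: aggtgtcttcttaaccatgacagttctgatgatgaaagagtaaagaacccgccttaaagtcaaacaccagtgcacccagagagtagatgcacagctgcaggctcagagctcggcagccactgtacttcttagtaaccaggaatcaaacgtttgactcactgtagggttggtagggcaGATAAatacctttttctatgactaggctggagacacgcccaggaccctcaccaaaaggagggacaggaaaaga

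All 4 windows held GATAA on the strand of the gene. It lay 102 to 98 bases before the start in Mcpt4, 45 to 41 in Cpa3, 29 to 25 in Ccr3 and 73 to 69 in Il5ra. GATAA was on the strand of the gene in 12.5% of 32851 RefSeq promoters of the same length, and on either strand in 22.6%. The core of a TATA box, TATAAA, lay 32 to 27 bases before the start in the protease gene Mcpt4 and 31 to 26 in the protease gene Cpa3, and neither receptor window held it on either strand. Cpa3 had 1 further match on the opposite strand, 242 to 237 bases before the start. TATAAA was on the strand of the gene in 7.59% of all promoters, and on either strand in 12.4%. No match of one motif overlapped the other in these 4 windows. Both motifs were picked after the sequences were seen, and a match describes letters, not a bound site.

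The values rest on few fragments. Library totals, recovered from the spacing of low values of short genes, were 14.4 to 16.7 times 1000000 fragments in Control and 15.4 to 19.2 times 1000000 in DSS. At these totals 87.5 to 96.2% of 48 to 78 short genes per library came out as whole fragments, given the 2 decimals of the files. The same totals gave whole fragments for 6 of 6 values of Mcpt4 and 5 of 6 of Cpa3. Mcpt4, with 1108 exon bases, is itself one of the short genes that set the totals, so its values are no check of them. Cpa3, with 1517, is outside that set. For the longer Ccr3 and Il5ra the rounding spans 0.235 to 0.342 fragments to either side, too wide for such a check. Every listed feature with a higher DSS mean was at least 2.15-fold higher there, so the files hold a selection, and a difference of a listed gene is no independent evidence of a change. The description texts of Control replicate 3 and DSS replicate 3 name another group than their titles and treatment labels; groups follow the titles, and the results for the members are also given without both libraries. The colon markers Car4 and Slc26a3 were listed and abundant. Kit, Fcer1a and Ms4a2 of mast cells and Siglecf, Epx and Prg2 of eosinophils were not analysed here, so the presence of either cell type was not checked beyond the genes below. In bulk RNA, a change in the number of cells and a change in RNA per cell cannot be told apart.

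**Figure D1:**
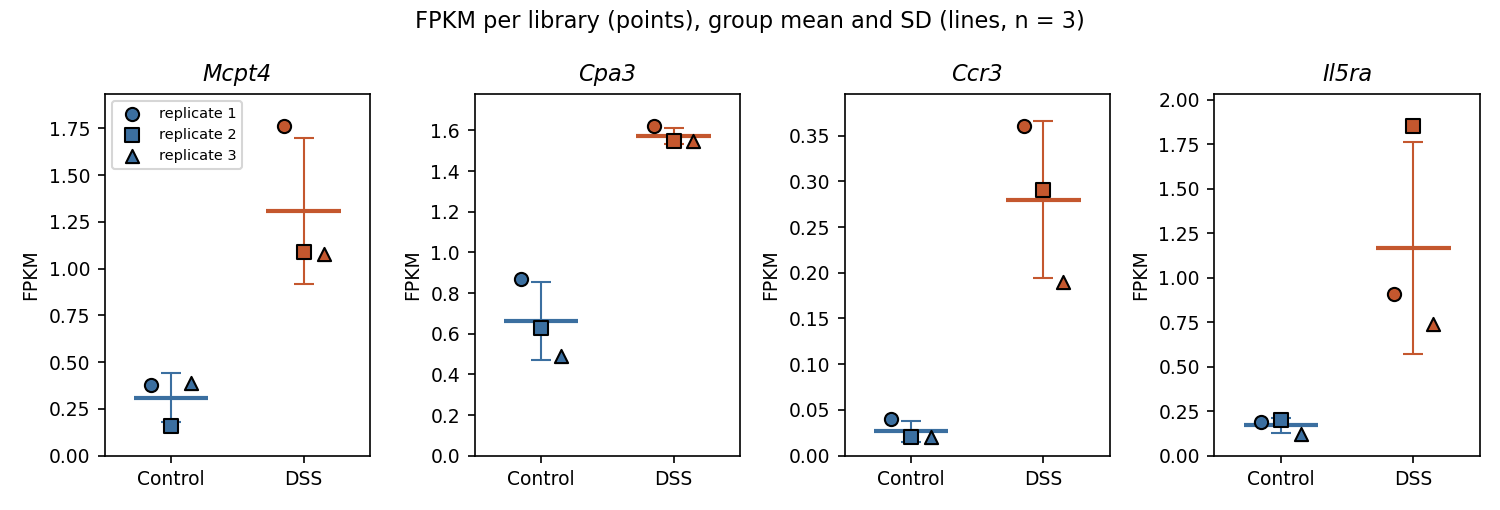
FPKM of Mcpt4, Cpa3, Ccr3 and Il5ra on linear axes from 0, each with its own scale; points are libraries (circle, square and triangle for replicates 1, 2 and 3), thick lines are group means and thin bars the SD (n = 3). In all 4 genes every DSS library lies above every Control library by FPKM, with DSS replicate 2 far above the other DSS libraries in Il5ra and the 3 DSS libraries of Cpa3 nearly level.

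By FPKM, all 4 genes were higher in DSS, in every DSS library against every Control library. Among the proteases, Mcpt4 was 4.23-fold and Cpa3 2.37-fold higher in mean FPKM. Among the receptors, Il5ra was 6.86-fold and Ccr3 10.5-fold higher. The median fold over all 912 features was 2.59, so the fold of Cpa3 was below that of the median listed feature and the other 3 were above it. Setting the median listed feature level in every library takes 0.65 off every log2(FPKM + 1) change and leaves no member called higher, with Cpa3 (−0.012) and Ccr3 (−0.33, no filter) below 0. For Ccr3 that sign comes from the pseudocount, which shrinks a log2 fold of 3.43 in FPKM (difference of group mean log2 values) to 0.32. Groups did not overlap for 95.2% of the 912 features, and 77.4% had all DSS libraries above all Control libraries, so that the separation of 4 of 4 members is near the background of the list.

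Mcpt4 (ENSMUSG00000061068), a chymotrypsin-like serine protease of mast cell granules, lies on chromosome 14 from 56059629 to 56062313 (minus strand, GRCm38), a protein-coding gene with 5 exon blocks. Its FPKM was 0.38, 0.16 and 0.39 in Control replicates 1, 2 and 3 and 1.76, 1.09 and 1.08 in DSS replicates 1, 2 and 3. DSS replicate 1 was the highest library and Control replicate 2 the lowest. The means were 0.310 ± 0.130 and 1.31 ± 0.390 FPKM (SD, n = 3 in each group). Mcpt4 rose by 0.81 on the log2(FPKM + 1) scale (SE 0.17, limma adjusted p = 0.00409), a scale that understates the change of low genes. Limma called 99.1% of the 576 features tested, and 79.2% of the 576 were called higher in DSS, so the call of Mcpt4 has to be read against that. Mcpt4 entered the test only through its 3 DSS libraries, the ones with at least 1 FPKM. Without Control replicate 3 and DSS replicate 3 the change was 0.92 (limma adjusted p = 0.0202).

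Cpa3 (ENSMUSG00000001865), the mast cell carboxypeptidase, a zinc enzyme that trims C-terminal residues in the same granules, lies on chromosome 3 from 20215620 to 20242181 (minus strand) with 12 exon blocks. Its FPKM was 0.87, 0.63 and 0.49 in Control and 1.62, 1.55 and 1.55 in DSS, in replicate order. It was the most abundant member in each group by mean, and its DSS libraries were almost equal. The means were 0.663 ± 0.192 and 1.57 ± 0.0404 FPKM. Cpa3 rose by 0.64 on the log2(FPKM + 1) scale (SE 0.15, limma adjusted p = 0.00526). It too entered the test only through the 3 DSS libraries. The DSS libraries of Cpa3 varied by 2.57% of their mean, less than the 15.7% that counting error alone gives per library, so the small SD of that group understates the error. Only 164 of the 731 features with a higher DSS mean had a smaller fold than Cpa3, against 551 for Mcpt4. Without Control replicate 3 and DSS replicate 3 the change was 0.57 (limma adjusted p = 0.0319).

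Ccr3 (ENSMUSG00000035448), a G protein-coupled receptor for eotaxins found on eosinophils and also on basophils, lies on chromosome 9 from 124021972 to 124031689 (plus strand) with 2 exon blocks. Its FPKM was 0.04, 0.02 and 0.02 in Control and 0.36, 0.29 and 0.19 in DSS. All Control libraries were close to the lowest value the files can show, and the lowest DSS library stood well above them. The means were 0.0267 ± 0.0115 and 0.280 ± 0.0854 FPKM. No library reached 1 FPKM, so Ccr3 was outside the filtered test. In the fit of all 912 features without that filter, which called 96.2% of them, Ccr3 differed by 0.32 on the log2(FPKM + 1) scale (SE 0.067, limma adjusted p = 0.00745). Without Control replicate 3 and DSS replicate 3 the difference was 0.36 (limma adjusted p = 0.0382, no filter).

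Il5ra (ENSMUSG00000005364), the interleukin 5-binding alpha chain of the receptor, lies on chromosome 6 from 106710357 to 106749037 (minus strand) with 13 exon blocks. Besides eosinophils, B-1 lymphocytes of the mouse are known to carry it. Its FPKM was 0.19, 0.20 and 0.12 in Control and 0.91, 1.85 and 0.74 in DSS. DSS replicate 2 was 2.50 times as high as DSS replicate 3, and both stood above all Control libraries. The means were 0.170 ± 0.0436 and 1.17 ± 0.598 FPKM. Only DSS replicate 2 reached 1 FPKM, and without the filter Il5ra differed by 0.86 on the log2(FPKM + 1) scale (SE 0.18, limma adjusted p = 0.00761). Leaving out DSS replicate 2 lowered the difference to 0.64 (limma adjusted p = 0.00524, no filter). Without Control replicate 3 and DSS replicate 3 it was 0.97 (limma adjusted p = 0.0382, no filter). For each of the 4 genes an exact two-sided permutation test of 3 against 3 libraries gave p = 0.1, the smallest that this design allows.

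**Figure D2:**
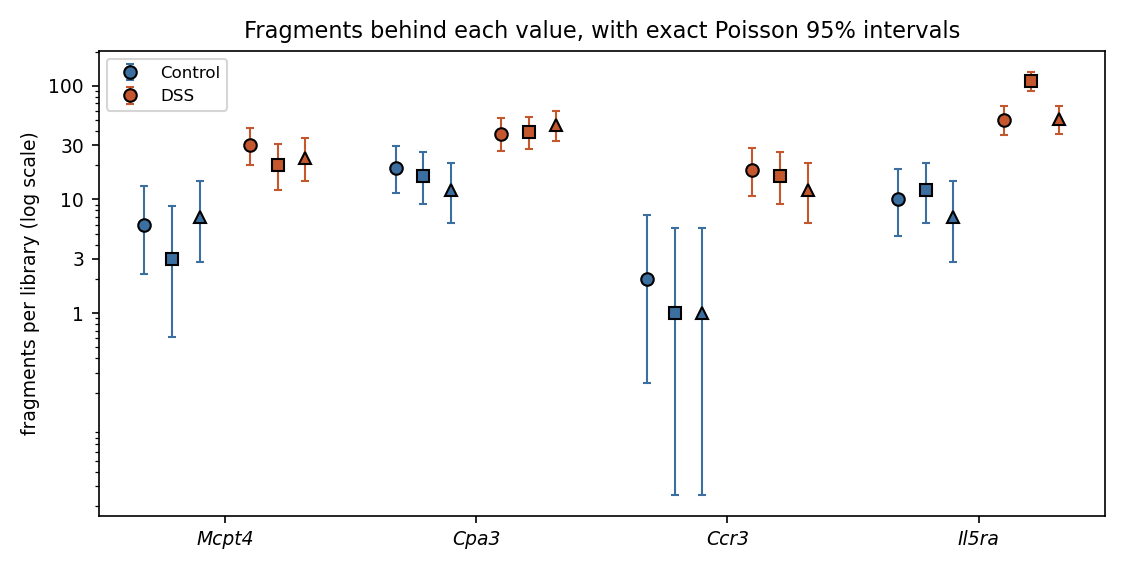
Fragments behind each FPKM value, per library (log axis), with exact Poisson 95% intervals; blue is Control, orange is DSS, and the symbols are replicates 1, 2 and 3. Ccr3 rests on 1 or 2 fragments in Control, whereas Il5ra reaches 110 in DSS replicate 2.

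Counted as fragments, Ccr3 had 2, 1 and 1 in Control and 18, 16 and 12 in DSS. Summed over 3 libraries and divided by the library totals, 46 fragments against 4 gave a ratio of 10.6, with an exact 95% interval of 3.88 to 40.6 that covers counting error only. Ccr3 is thus the member with the largest ratio and the widest interval. Il5ra had 211 fragments against 29, a ratio of 6.72 (4.54 to 10.3). Mcpt4 had 73 against 16, a ratio of 4.21 (2.43 to 7.75). Cpa3 had 122 against 47, a ratio of 2.40 (1.70 to 3.43). The counting interval of Cpa3 lay below those of both receptors, which overlapped each other, and that of Mcpt4 overlapped all the others. Between DSS libraries, Il5ra varied by 51.2% of its mean, against a counting error of 11.9% per library. The corresponding values were 29.8% and 20.3% for Mcpt4 and 30.5% and 25.5% for Ccr3.

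By FPKM, which is corrected for gene length, the order of mean levels was Cpa3, Mcpt4, Il5ra and Ccr3 in both groups. In Control the lowest Cpa3 library (0.49) lay above the highest of Mcpt4 (0.39), Mcpt4 and Il5ra overlapped, and every Il5ra library lay above every Ccr3 library. In DSS the ranges of Cpa3, Mcpt4 and Il5ra overlapped, and Ccr3 lay below all of them. Among the 912 features, ranked from the highest mean, the members stood at 550 (Cpa3), 694 (Mcpt4), 775 (Il5ra) and 899 (Ccr3) in Control. Their ranks in DSS were 527, 559, 585 and 846.

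Ratios between genes of the same library do not depend on the library total or on how much of it other genes take. The ratio of Mcpt4 to Cpa3 was 0.437, 0.254 and 0.796 in Control and 1.09, 0.703 and 0.697 in DSS. The groups overlapped, and the difference of 0.86 on the log2 scale (SE 0.52) gave p = 0.3 in an exact two-sided permutation test. Without Control replicate 3 and DSS replicate 3 the difference was 1.39, with 2 libraries a group and an exact permutation p of 0.333, the smallest they allow. The ratio of Il5ra to Ccr3 was 4.75, 10.0 and 6.00 in Control and 2.53, 6.38 and 3.89 in DSS, again with overlap (log2 difference −0.73, SE 0.50, exact permutation p = 0.3). Unequal change within either pair was thus not shown beyond the spread between all 6 libraries.

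Ratios of a receptor to a protease were higher in DSS by geometric mean. Il5ra to Cpa3 was 0.218, 0.317 and 0.245 in Control and 0.562, 1.19 and 0.477 in DSS, 2.66-fold higher (geometric mean). Ccr3 to Cpa3 was 0.0460, 0.0317 and 0.0408 in Control and 0.222, 0.187 and 0.123 in DSS, 4.41-fold higher. Neither ratio overlapped between groups, as was the case in this direction for 11.9% of the 911 other features set against Cpa3, whose own fold was near the smallest of the listed rises. Ccr3 to Mcpt4 was also separate (2.42-fold higher), as 2.52% of the other features were against Mcpt4. Il5ra to Mcpt4 overlapped (1.46-fold, exact permutation p = 0.5). In Control replicates 1, 2 and 3, both Ccr3 ratios rest on 2, 1 and 1 fragments of Ccr3. Mcpt4 had 6, 3 and 7 fragments there. The exact Poisson interval of 1 fragment runs from 0.0253 to 5.57. Whether the Ccr3 ratios stay separate within counting error was not tested. Il5ra to Csf2rb, the alpha chain against the beta chain that interleukin 5, interleukin 3 and GM-CSF receptors share, was 0.107, 0.0926 and 0.0750 in Control and 0.192, 0.30 and 0.233 in DSS. This ratio was 2.62-fold higher in DSS and did not overlap either, beside 13.3% of the other features against Csf2rb. The 4 separate ratios, taken without Control replicate 3 and DSS replicate 3, were 3.11-fold (Il5ra to Cpa3), 5.34-fold (Ccr3 to Cpa3), 2.03-fold (Ccr3 to Mcpt4) and 2.41-fold (Il5ra to Csf2rb) higher. For each of the 4 separate ratios the exact permutation p was 0.1, the smallest possible, and 0.175 after Benjamini-Hochberg adjustment over the 7 ratios compared. All but the first 2 ratios were chosen after the values were seen.

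**Figure D3:**
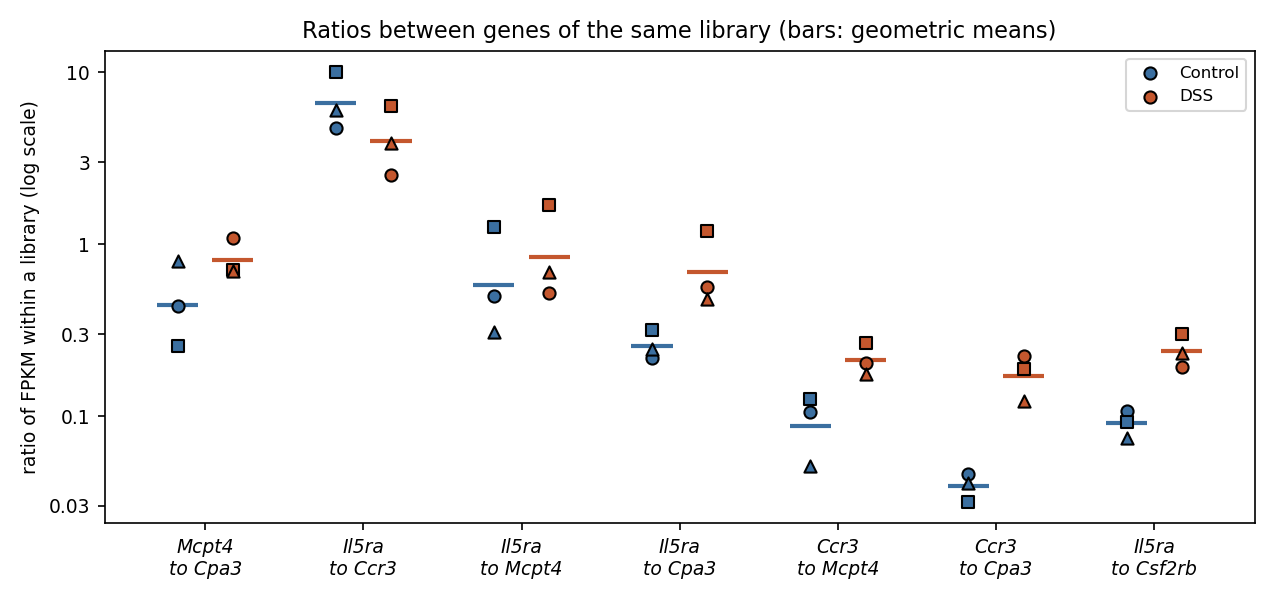
Ratio of FPKM of 2 genes within each library (log axis); blue is Control and orange DSS, symbols are replicates 1, 2 and 3 (circle, square, triangle), and bars are geometric means. Il5ra to Cpa3, Ccr3 to Mcpt4, Ccr3 to Cpa3 and Il5ra to Csf2rb do not overlap between groups, and the other 3 ratios do.

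Other mast cell genes that the files list are shared with many leukocytes. Of 32 genes on a mast cell list, 4 were listed: the members Mcpt4 and Cpa3 together with Srgn and Fcer1g. All 4 rose, beside 79.2% of all features tested. Their median log2 change in the fit without a filter was 0.98, against 0.67 over all 912 features and 0.87 over the 731 with a higher DSS mean. By fold of mean FPKM the 4 stood lowest instead: their median was 2.37, against 2.59 over the 912 and 2.89 over the 731. Srgn, the core protein serglycin that holds proteases and heparin in granules, stood at 13.2, 16.7 and 12.2 FPKM in Control and 31.8, 43.8 and 23.9 in DSS (log2 change 1.15, limma adjusted p = 0.00848). Fcer1g, the gamma chain of the IgE receptor and of several IgG receptors, stood at 11.3, 9.62 and 12.6 FPKM in Control and 28.8, 28.9 and 20.7 in DSS (log2 change 1.15, limma adjusted p = 0.00566). Neither gene overlapped between groups. In the fit without both libraries of conflicting description the changes were 1.27 and 1.39 (limma adjusted p = 0.0306 and 0.0224). The other 28 genes of the list, and all 10 of a basophil list, were not analysed here.

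Of 23 genes on an eosinophil list, 8 were listed, and by FPKM all 8 were higher in DSS without overlap, where 77.4% of all listed features were. After the low-value filter 5 of 5 tested genes rose, beside 79.2% of all features tested. Without it 8 of 8 did, beside 77.6% of all, with a median log2 change of 0.95. Csf2rb, the shared beta chain, stood at 1.78, 2.16 and 1.60 FPKM in Control and 4.75, 6.16 and 3.18 in DSS (log2 change 0.97, limma adjusted p = 0.00565). Its close copy Csf2rb2, the beta chain of the interleukin 3 receptor, changed by 0.99 (limma adjusted p = 0.00480), and reads of these 2 genes may be shared. Both beta chains and Il5ra were highest in DSS replicate 2 and lowest among DSS libraries in replicate 3. Srgn, Fcer1g, Pirb and Retnlg had the same order, and 62.0% of the 731 features with a higher DSS mean were highest in replicate 2. Of the inhibitory receptors, Cd300a rose from 1.06 ± 0.117 to 3.01 ± 1.02 FPKM and Pirb from 2.35 ± 0.471 to 5.73 ± 1.12 FPKM (log2 changes 0.93 and 1.00). F5, coagulation factor V, stood at 0.0933 ± 0.0379 and 0.330 ± 0.0265 FPKM, below the filter. Retnlg, a resistin-like gene that is also on the neutrophil list, rose from 0.253 ± 0.0839 to 5.64 ± 3.36 FPKM (log2 change 2.26, limma adjusted p = 0.0251). With no Control library at 1 FPKM, Retnlg entered the filtered test only through DSS and high-dose decoction libraries. Its call was lost without Control replicate 2 (2.23, limma adjusted p = 0.0610), DSS replicate 1 (2.17, 0.0558) or DSS replicate 2 (1.90, 0.106). It was also lost in the fit that drops both Control replicate 3 and DSS replicate 3 (2.69, limma adjusted p = 0.0522). These fits, like the main one, also take the spread of Retnlg from the high-dose decoction group (9.50, 64.5 and 226 FPKM). The call was kept in the fit of only the 6 Control and DSS libraries (limma adjusted p = 0.00179), and in these 6 with the replicate number as a block (0.00159). Among the 8, only Retnlg had a larger fold (22.3) than Ccr3 and Il5ra.

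**Figure D4:**
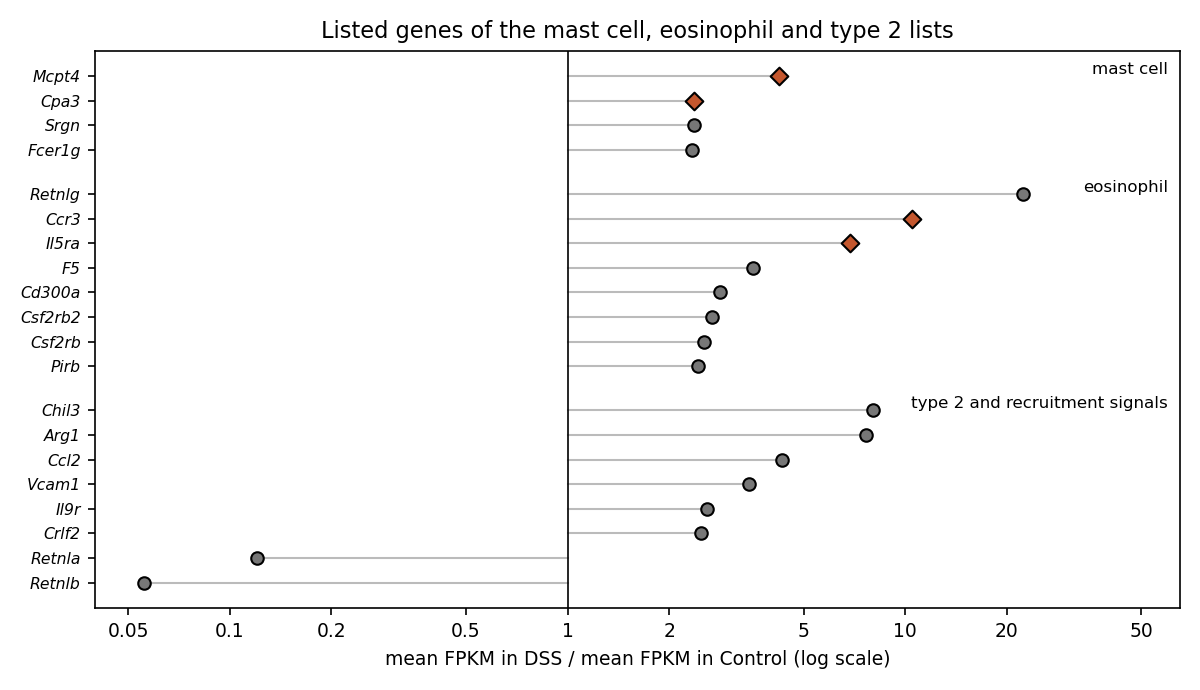
Mean FPKM in DSS divided by mean FPKM in Control (log axis) for the listed genes of the mast cell, eosinophil, and type 2 and recruitment lists; orange diamonds are Mcpt4, Cpa3, Ccr3 and Il5ra, grey circles the other genes, and Cxcr2 is left out because 2 Control libraries were at 0. Ccr3 (10.5) and Il5ra (6.86) lie right of Mcpt4 (4.23) and Cpa3 (2.37), and Retnla and Retnlb lie left of 1.

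Genes of type 2 immunity and of cell recruitment moved both ways. Of 37 genes on that list, 9 were listed and 6 tested, of which 3 rose (Vcam1, Crlf2 and Ccl2), 2 fell (Retnla and Retnlb) and Chil3 did not pass. Of all 576 features tested, 456 rose (79.2%) and 115 fell, so calls in both directions are also the background. Vcam1, the endothelial ligand of integrins that eosinophils carry, rose from 3.35 ± 0.541 to 11.5 ± 2.19 FPKM (log2 change 1.52). Crlf2, a chain of the TSLP receptor, rose from 1.39 ± 0.660 to 3.45 ± 0.206 FPKM (0.93), and Ccl2, a monocyte attractant, from 0.860 ± 0.111 to 3.71 ± 1.79 FPKM (1.26). No Control library reached 1 FPKM of Ccl2, so it entered the test only through its DSS libraries. Retnla, a product of macrophages and eosinophils in type 2 responses, stood at 12.2, 21.5 and 12.7 FPKM in Control and 2.92, 0.30 and 2.35 in DSS. Retnla thus fell by 2.63 on the log2 scale (limma adjusted p = 0.00259), opposite to the 4 members. Retnlb, made by goblet cells, stood at 127, 21.4 and 4.52 FPKM in Control and 1.30, 4.75 and 2.47 in DSS. The groups overlapped, and the fall of 2.81 (limma adjusted p = 0.0184) did not pass without DSS replicate 1 (−2.49, limma adjusted p = 0.0526). Its size rested on Control replicate 1, without which it was −1.63 (limma adjusted p = 0.0236). Il9r, the receptor of the mast cell growth factor interleukin 9, stood at 0.24, 0.55 and 0.16 FPKM in Control and 1.19, 0.61 and 0.66 in DSS. Its unfiltered difference of 0.46 (limma adjusted p = 0.0256) did not pass without Control replicate 1 (0.43, limma adjusted p = 0.0677), Control replicate 3 (0.38, 0.0910) or DSS replicate 1 (0.32, 0.0657), nor without both libraries of conflicting description (0.44, 0.105). Arg1 and Chil3, further genes of alternatively activated macrophages, stood at 0.250 ± 0.120 and 0.0767 ± 0.0351 FPKM in Control and 1.91 ± 2.16 and 0.617 ± 0.537 FPKM in DSS. Neither was called (limma adjusted p = 0.0551 without the filter for Arg1 and 0.258 for Chil3), but fitting only the 6 Control and DSS libraries called both (limma adjusted p = 0.0499 and 0.0328), as did a pseudocount of 0.1 (0.0205 and 0.0290). In the 6 Control and DSS libraries with the replicate number as a block, limma adjusted p was 0.0320 for Chil3 and 0.0528 for Arg1. Of those 6, only DSS replicate 2 reached 1 FPKM of Chil3 (1.22). Chil3 passed the filter through libraries of the high-dose decoction group (1.42, 7.78 and 8.98 FPKM). Fits that hold the decoction libraries took its spread from them too. Without DSS replicate 2, the change of Arg1 dropped from 0.98 to 0.41 (limma adjusted p = 0.0234) and that of Chil3 from 0.54 to 0.28 (0.602). Cxcr2, a neutrophil chemokine receptor, was listed at 0 in Control replicates 1 and 2 and at 0.53, 3.39 and 0.17 FPKM in DSS (limma adjusted p = 0.0520 without the filter). Cxcr2 was called in the fit of only the 6 Control and DSS libraries, without (limma adjusted p = 0.0467) and with the replicate number as a block (0.0362). A pseudocount of 0.1 called it too (limma adjusted p = 0.00838). Without DSS replicate 2 its change dropped from 0.98 to 0.41 (limma adjusted p = 0.0149).

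Markers of other cells moved beside the members. Of 18 neutrophil genes 9 were listed, and their summed FPKM ranged from 1.82 to 2.03 in Control and from 8.88 to 68.7 in DSS, with all 9 highest in DSS replicate 2. Cxcr2, Fpr1 and Cxcl2 among them were at 0 in at least 1 Control library. Of 20 T and NK cell genes 10 were listed, with sums of 11.5 to 18.0 in Control and 32.5 to 44.7 in DSS. DSS replicate 1 was highest for 8 of the 10, as it was by FPKM for Mcpt4, Cpa3 and Ccr3. For each of these members the Poisson intervals of the DSS libraries overlapped, so which library is highest is within counting error. For 4 of 18 macrophage genes the sums were 16.1 to 21.6 and 39.4 to 47.7. For 6 of 17 B and plasma cell genes they were 4937 to 6087 and 11504 to 17460. For 9 of 13 fibroblast genes they were 173 to 209.5 and 502 to 990, all 9 highest in DSS replicate 2, as Il5ra was. Car4 and Slc26a3, the 2 listed of 17 epithelial genes, fell from sums of 742 to 1086 to 109 to 457. Of all 731 features with a higher DSS mean, 62.0% were highest in DSS replicate 2, 29.7% in replicate 1 and 8.34% in replicate 3. The part of these cells in the values of the 4 members was not tested.

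Each member was compared with 576 features, those with a mean of at least 1 FPKM over the 6 libraries and the other members. The listed features with the most similar profile were found by the root mean square distance of log2(FPKM + 1), each feature centred on its own mean. For Il5ra these were Wnt5a (distance 0.050), Pde1a (0.063) and Sh3pxd2b (0.069), against a median distance of 0.33, each with its peak in DSS replicate 2. For Mcpt4 they were Smoc1 (0.092), Cnrip1 (0.14) and Il27ra (0.14), each highest in DSS replicate 1. For Cpa3 they were Lilra5 (0.091), Gm39556 (0.099) and Tlr9 (0.10), with nearly level DSS libraries in Tlr9 (1.98, 1.94 and 1.71 FPKM). For Ccr3 the nearest were Aoah (0.15), Cnrip1 (0.16) and Gli2 (0.17), and the distances were larger. Features as low as Ccr3 were outside this comparison. The pseudocount of 1 shrinks the changes of low genes, so a near profile does not mean a like fold. Mean FPKM went from 0.170 to 1.17 in Il5ra and from 2.46 to 5.47 in Wnt5a. In Ccr3 it went from 0.0267 to 0.280, and in Aoah from 0.703 to 1.56. No member was among the nearest 3 of another member.

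**Figure D5:**
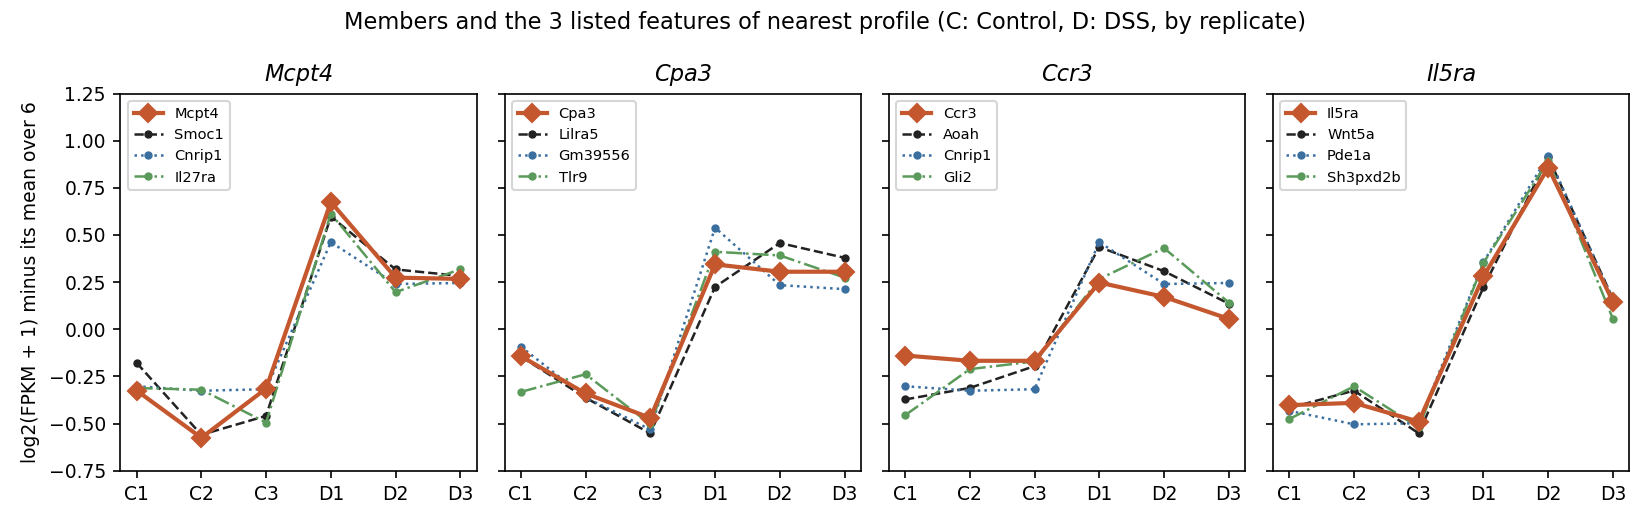
log2(FPKM + 1) minus its mean over the 6 libraries for each member (orange diamonds) and its 3 nearest listed features, with Control (C) and DSS (D) replicates 1 to 3 along the axis; lines join points only to guide the eye. Il5ra and its neighbours share a peak in DSS replicate 2, whereas Mcpt4 and its neighbours peak in DSS replicate 1.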

How the data were processed

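The deposited values are FPKM, rounded to 2 decimals, per the file headers. Per the labels' protocols, RNA came from TRIzol extraction and 1 µg of it went into each NEBNext Ultra library. The submitters' processing notes name bcl2fastq, FastQC and fastp, without versions, and build mm10. For the aligner, the counting program, the use of strand and the rule behind the 912 features, details were not given in the sources used here. FPKM is not corrected for composition.

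Names and coordinates are from GENCODE release M21 (GRCm38), matched for 903 of the 912 identifiers. Library totals were scanned from 5 to 30 times 1000000 fragments for the one at which FPKM times exon length gave whole fragments in genes under 1200 exon bases; they assume those exon lengths. The test was run on log2(FPKM + 1) in limma 3.58.1 (R 4.3.3), 1 mean per group over 12 libraries with a trended estimate of the spread, for features of at least 1 FPKM in 3 or more libraries, with two-sided Benjamini-Hochberg adjusted p-values and a threshold of 0.05. The fit was also run on simulated normal values with known changes, which is no test of calls that rest on few fragments. Mcpt4, Cpa3, Ccr3, Il5ra and the gene lists were chosen with earlier results of these data known. Named are these 4, every listed gene of the mast cell, basophil, eosinophil and type 2 lists, and the 3 nearest profiles of each. Of the smooth muscle list, 0 of 8 genes were listed, and of the endothelial list 1 of 11.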

Additional observations from a re-analysis of the deposited data

How the results depend on the processing

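Across the 6 fits that leave out 1 library, the log2 change of Mcpt4 ranged from 0.68 to 0.88 and that of Cpa3 from 0.56 to 0.72, and without a low-value filter that of Ccr3 from 0.27 to 0.37 and that of Il5ra from 0.64 to 1.00, all past the threshold (limma adjusted p at most 0.0314). The ratio of Mcpt4 to Cpa3 ranged from 0.46 (without Control replicate 2) to 1.28 on the log2 scale, and that of Il5ra to Ccr3 from −1.07 to −0.40; with a pseudocount of 0.1 the latter reversed to 0.58, since Ccr3 in Control is far below that pseudocount. Features called higher in DSS were 440 to 453 and lower 88 to 111 in these fits, against 456 and 115. Higher calls numbered 708 without a filter, 287 with at least 1 FPKM in all 6 libraries (no member is then tested), 113 after setting the median listed feature of every library to the same level, and 4, with 4 lower, under groups from the description texts. Centring subtracts 0.65 from every change, because the list holds mostly rises. Mcpt4 then stood at 0.16 (limma adjusted p = 0.485), Cpa3 at −0.012 (0.953), Il5ra at 0.21 (0.252) and Ccr3 at −0.33 (0.0409), and F5 (−0.36), Il9r (−0.18) and Chil3 (−0.11) reversed too; for low genes such as Ccr3 and F5, whose folds exceed the median of 2.59, the sign comes from the pseudocount of 1. Of the genes called higher, centring ended the calls of Srgn, Fcer1g, Cd300a, Pirb, Csf2rb, Csf2rb2, Crlf2 and Ccl2 and not those of Retnlg and Vcam1. With groups from the description texts the changes were 0.66 for Mcpt4, 0.30 for Cpa3, 0.24 for Ccr3 and 0.61 for Il5ra (limma adjusted p from 0.572 to 0.627). Fits with the replicate number as a block held only the 6 Control and DSS libraries. There the 4 members stayed past the threshold (limma adjusted p = 0.00473 for Mcpt4, 0.00782 for Cpa3, 0.0121 for Ccr3 and 0.0103 for Il5ra). In these fits 457 features were higher, against 458 in the same 6 libraries without the block. The deviations of same-numbered libraries correlated by −0.052, 0.021 and 0.079, and those of differently numbered ones by −0.128 to 0.104. With 3 libraries a group, these values cannot settle whether same-numbered libraries share more than a number. The alternatives of the unfiltered fits were chosen after seeing the data. Depth limits Ccr3 most, with 4 Control fragments in all.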

Other observations

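The files of the high-dose decoction group (DSS with 15.2 g/kg per day) list 3 genes of the lists used above and none of the members. Ccl8, a chemokine that attracts monocytes and eosinophils, stood at 40.7, 58.1 and 52.8 FPKM in replicates 1, 2 and 3; it is outside the 912 features, and its level in Control and DSS was not analysed here. Chil3 stood at 1.42, 7.78 and 8.98 FPKM and Retnlg at 9.50, 64.5 and 226 FPKM. Their differences from DSS were not tested here.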
